A study of Mus musculus with 6 samples.

Results

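HL-1 is a beating mouse cardiomyocyte line that descends from an atrial tumour. Alox5ap and Cntf are protein-coding genes whose messages were among the most strongly soluble in its nuclear fractions. They were chosen by gene name, and for their low pellet level relative to the soluble extract, so that this ratio is given as a description and carries no test. They are 2 of 28660 genes and other loci in the table, and the loci they were assembled into hold 4 rows in all. Both passed the level filter, which asked for a mean of 0.5 FPKM or more over pellet and soluble, and rows that passed it are called tested rows. The fractions compared were the chromatin pellet extract, with 3 libraries, and the soluble nuclear extract, with 3 libraries. All 6 came from HL-1 cells kept in Claycomb medium with norepinephrine, with no treatment or genotype that differs between them, so every library shares a single immortalised line. ERCC spike-ins, synthetic RNAs of known makeup, went into each fraction before the RNA was extracted.

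Alox5ap encodes FLAP, a membrane protein of the nuclear envelope and endoplasmic reticulum that hands arachidonic acid to the enzyme arachidonate lipoxygenase, encoded by Alox5, for the making of leukotrienes. Leukotrienes are lipid mediators of inflammation, and the pathway is best known from myeloid cells. Cntf encodes ciliary neurotrophic factor, a cytokine of the interleukin-6 family known from Schwann cells and astrocytes, which signals through the receptor subunits Cntfr, Lifr and Il6st to Jak kinases and Stat3. Most messages leave the nucleus after processing, and the fractionation separates RNA that is held on chromatin from RNA that is free in the nuclear extract.

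Each fraction has a single deposited value per locus, pooled by the authors over its libraries in FPKM, which is fragments scaled to transcript length and to library size. The spread between replicates therefore cannot be given, there is no p-value, and no difference has a replicate check. Unless stated otherwise a log2 fold is pellet over soluble on the spike-in scale, with pellet FPKM multiplied by 3.37, the common factor of the 82 spike-ins. The error that can be given is the scatter of spike-ins of a similar level about that factor. The 18 spike-ins with a pellet value of 0.03 to 0.3 FPKM, the range that holds both genes, had log2 residuals from -0.84 to 0.35 about the factor. The SD of these residuals, taken about their own mean, was 0.31, and 0 of them was off by 2-fold. Of 10 cardiomyocyte markers found in the table, all 10 passed the level filter, and they ranged from 0.208 to 213.4 FPKM in the pellet and from 1.63 to 1119 FPKM in the soluble extract. FPKM keeps no count of fragments, so the depth is unknown, and steps of a whole read were not looked for. Values reached down to 1.25e-08 FPKM in the pellet and 3.66e-09 FPKM in the soluble extract.

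Cntf shares its locus with Zfp91, a zinc finger ubiquitin ligase, and the starts of both genes are printed here because the table assembles them together although they are separate. On GRCm38.p6, the build also called mm10, RefSeq places Cntf on chromosome 19 from 12763528 to 12765632, with a length of 2105 bp, and Zfp91 from 12766939 to 12796123. Both are on the minus strand, so Cntf lies downstream of the end of Zfp91, with 1306 bp between them. In human, a transcript that reads through from ZFP91 into CNTF is annotated. The promoter windows run from 250 bases before the start to 50 after it, at chr19:12765583-12765882 for Cntf and chr19:12796074-12796373 for Zfp91, from RefSeq, 5′ to 3′ on the gene's strand, with CpG dinucleotides in capitals.
Cntf: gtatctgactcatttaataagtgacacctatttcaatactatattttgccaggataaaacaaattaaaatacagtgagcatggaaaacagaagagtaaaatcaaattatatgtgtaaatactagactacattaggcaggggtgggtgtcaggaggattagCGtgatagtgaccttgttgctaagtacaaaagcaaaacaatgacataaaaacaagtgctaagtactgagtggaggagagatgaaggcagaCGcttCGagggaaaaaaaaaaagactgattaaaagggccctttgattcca
Zfp91: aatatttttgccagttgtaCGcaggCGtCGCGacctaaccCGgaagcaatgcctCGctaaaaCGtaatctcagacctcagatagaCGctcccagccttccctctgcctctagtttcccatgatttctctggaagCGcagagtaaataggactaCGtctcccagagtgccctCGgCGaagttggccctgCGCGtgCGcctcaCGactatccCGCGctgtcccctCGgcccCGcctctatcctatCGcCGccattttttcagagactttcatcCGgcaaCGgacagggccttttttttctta

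The window of Cntf held 3 CpG dinucleotides and was 36.3% G and C, while that of Zfp91 held 24 and was 55.0% G and C. Over 32851 promoter windows of this length the medians were 7 CpG dinucleotides and 52.7%, and 23.3% of windows had fewer CpG than Cntf against 80.0% with fewer than Zfp91. The 2 genes thus start from windows of different base composition, on either side of the median for CpG. Of 4 motifs searched on both strands, the motif TATAAA, the motif CCAAT and the motif GGGCGG had 0 matches in either window. The motif TGACTCA had 1 match in the window of Cntf, from its base 6, and 0 in that of Zfp91, and it occurred in 5.20% of all windows. The other 3 motifs occurred in 13.6%, 37.4% and 35.7% of all windows, in the order named. Of 3 genes looked up, the promoter table gave 2, and Alox5ap was not among them.

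Alox5ap was nearly absent from the pellet and present in the soluble extract, at a level in the lower part of the range. The gene (ENSMUSG00000060063.6, chromosome 5, 149265058 to 149288045 in the table) had 0.0708 FPKM in the chromatin pellet and 5.67 FPKM in the soluble nuclear extract. At balance with the spike-ins, its pellet value would have been 1.68 FPKM. The log2 fold was -4.57, so the soluble signal was 23.8 times the rescaled pellet signal, or -6.32 on the FPKM scale without the spike-in factor. On the spike-in scale, 4.04% of the summed signal of both fractions was in the pellet. In the authors' deposited table its chromatin enrichment is 0.0421, the same ratio before the logarithm.

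Cntf had the same pattern with a smaller ratio. The gene (ENSMUSG00000079415.2) had 0.115 FPKM in the pellet and 3.71 FPKM in the soluble extract, where balance would have given 1.10 FPKM in the pellet. Its log2 fold was -3.26, or -5.01 on the FPKM scale, and the soluble signal was 9.58 times the rescaled pellet signal. The pellet held 9.45% of its summed signal. In the authors' deposited table its chromatin enrichment is 0.104. The median tested protein-coding row had 54.6% of its signal in the pellet, so both genes were far to the soluble side of the typical message.

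**Figure D1:**
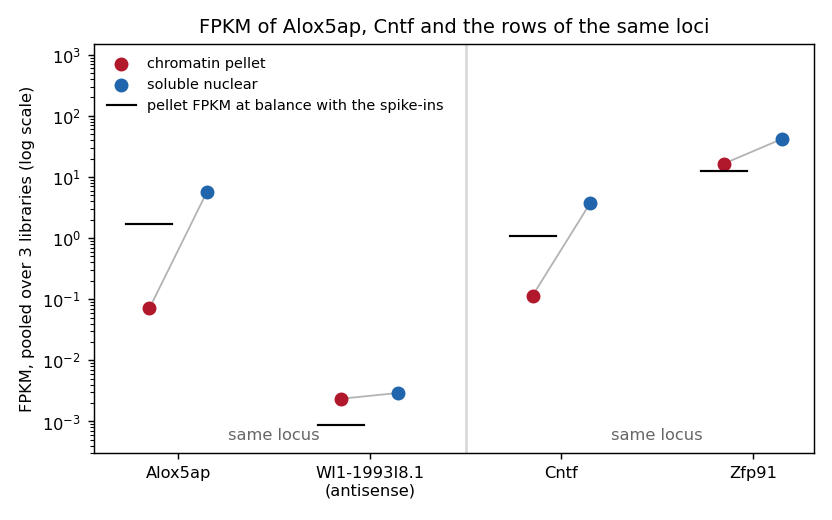
FPKM of Alox5ap, Cntf and the rows that carry the same locus, on a log scale, with the chromatin pellet in red left of the soluble nuclear extract in blue, each point being the authors' pooled value, and a black tick at the pellet FPKM that would balance the soluble value on the spike-in scale. The pellet points of Alox5ap (0.0708) and Cntf (0.115) lie well under their ticks (1.68 and 1.10), and that of Zfp91 (16.6) lies just above its tick (12.4).

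Few other messages reached ratios as low. At least 2-fold lower in the pellet were 10.6% of the 11397 tested protein-coding rows and 10.5% of all 13917 tested rows, both genes here among them by choice. Counted from the lowest log2 fold, Alox5ap was number 6 and Cntf number 15 of all tested rows. Among protein-coding rows they were number 3 and number 4, and these 4 alone were at least 8-fold lower in the pellet. The first 2 were Zfp791, a zinc finger gene, with 0.508 FPKM in the pellet and 47.8 FPKM in the soluble extract (log2 fold -4.80), and the histone gene Hist2h2aa2, with 0.0261 and 2.25 FPKM in the same order (log2 fold -4.67). After Cntf came mt-Nd4, a mitochondrial complex I gene, with a log2 fold of -2.97, Gm28038 with -2.95, Gm4076 with -2.87 and the thymosin gene Tmsb15a with -2.80. The step from Alox5ap to Cntf is thus wider than the step from Cntf to the next protein-coding row. The median of the tested protein-coding rows was 0.26 (interquartile range -0.43 to 0.97).

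The other rows at this end were mostly short or repeated RNAs. The 15 lowest rows were 5 ribosomal RNA copies, 4 protein-coding genes, 3 microRNA loci, 2 processed pseudogenes and 1 mitochondrial transfer RNA. Among the 10 lowest rows that averaged 1 FPKM or more, the 5S copy n-R5s65 had 0.433 FPKM in the pellet and 75.7 FPKM in the soluble extract, a log2 fold of -5.69. The microRNA locus Mir7653 had 2.09 and 129.6 FPKM in that order (log2 fold -4.20). The 5S copies n-R5s210 (log2 fold -4.12) and n-R5s71 (-3.90), the microRNA locus Mir7091 (-3.85) and the mitochondrial transfer RNA mt-Tt (-3.65) made up the rest with those named above and the pseudogene Gm15531. Reads of repeated copies, pseudogenes and near-identical histone genes can be assigned to the wrong copy. The values of Hist2h2aa2, the 5S copies and the pseudogenes are therefore uncertain. Both mt-Nd4 and mt-Tt are genes of the mitochondrial genome, with 319.6 and 1033 FPKM in the soluble extract. That extract therefore held RNA from outside the nucleus, and whether this bears on the soluble values of Alox5ap and Cntf was not tested.

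**Figure D2:**
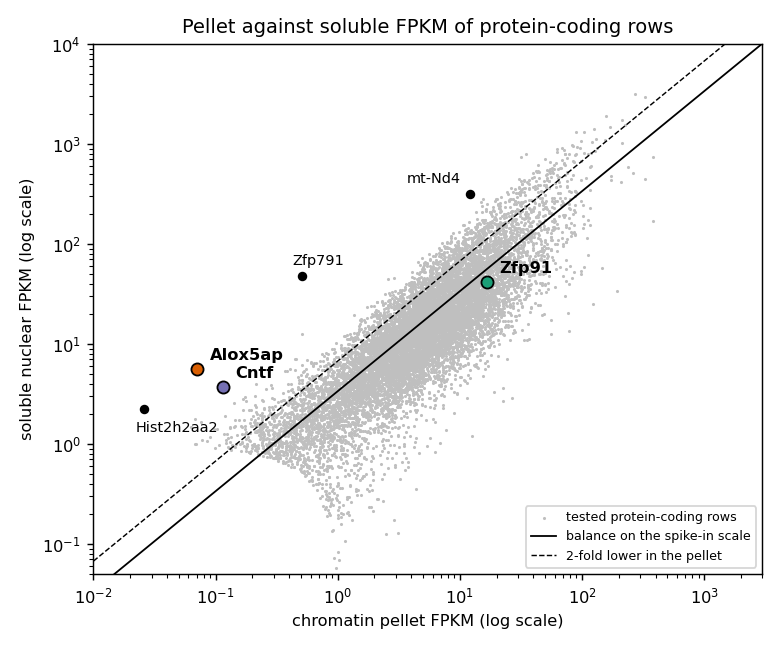
Soluble nuclear FPKM against chromatin pellet FPKM, both on log scales, for the 11397 tested protein-coding rows in grey, with Alox5ap, Cntf and Zfp91 in colour and 3 further low rows in black. The solid line marks balance on the spike-in scale and the dashed line a 2-fold lower pellet value, and the empty lower left corner is set by the filter at a mean of 0.5 FPKM (5 rows under 0.05 soluble FPKM lie outside the axes). Alox5ap and Cntf stand left of the grey cloud, while Zfp91 lies within it, close to balance.

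In level, both genes were low in the pellet and in the lower part of the range in the soluble extract. Their place among other rows in the pellet, also at a like soluble level, restates the ratio by which the genes were chosen, and the filter, which both genes passed through their soluble value, leaves few rows of a low pellet level. The pellet FPKM of Alox5ap was above that of 0.0439% of tested protein-coding rows, and its soluble FPKM above that of 27.8%. For Cntf these shares were 0.123% in the pellet and 19.8% in the soluble extract. The 933 other protein-coding rows within 1.2-fold of the soluble FPKM of Alox5ap had a median of 2.49 FPKM in the pellet, a lowest value of 0.371 FPKM (Hist1h3i, a histone gene), and a median log2 fold of 0.55. For Cntf there were 696 such rows, with a median of 1.72 FPKM in the pellet, a lowest value of 0.212 FPKM (Hist1h4b, a histone gene) and a median log2 fold of 0.66.

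The length of the gene differed between them. Alox5ap spans 23150 bp in RefSeq, on chromosome 5 from 149265004 to 149288153. Of 1283 tested protein-coding rows within 1.2-fold of this span, 85 (6.63%) were at least 2-fold lower in the pellet, the median log2 fold was 0.20 and the lowest was -1.86 (Mgst3, a membrane protein of the same family as FLAP). Cntf, at 2105 bp, belongs to the short genes, which lay more towards the soluble extract. Of 182 rows within 1.2-fold of its span, 75 (41.2%) were at least 2-fold lower, the median was -0.78 and the lowest was -2.45 (Rps16, a ribosomal protein). These ranges describe genes of a like length, and the low place of Alox5ap and Cntf beside them follows from how they were chosen.

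Zfp91, in the same locus as Cntf, was close to balance. The gene (ENSMUSG00000024695.11) had 16.6 FPKM in the pellet and 41.7 FPKM in the soluble extract, a log2 fold of 0.42 with 57.3% of the signal in the pellet. This turns to -1.33 on the FPKM scale, where 68.2% of tested protein-coding rows were at least 2-fold lower. Cntf made up 0.686% of the FPKM of the locus in the pellet and 8.16% in the soluble extract. With the FPKM of both rows added, the locus had 16.7 FPKM in the pellet and 45.4 FPKM in the soluble extract, a log2 fold of 0.31. The sources used here do not say how fragments were divided between the 2 rows, and whether that division bears on the low pellet value of Cntf was not tested.

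The log2 folds of Zfp91 and Cntf differed by 3.68, the same on both scales. Of 651 loci with exactly 2 tested rows, both protein-coding, the median difference between the rows was 0.93 with an upper quartile of 1.62, and 11 were wider than that of Zfp91 and Cntf. The widest was 11.7, for Fam172a and Pou5f2, where Pou5f2 had 1.44 FPKM in the pellet and 0.000929 FPKM in the soluble extract. The next were Mamdc4 and Phpt1, with a difference of 5.48, and 4921513D11Rik and Rmdn2, with 5.09. These pairs are named for the width of their difference, after their values were seen. Over all 1732 loci with at least 2 tested rows of any type, the median difference was 1.70 and 322 were wider than that of Zfp91 and Cntf. Among tested protein-coding rows, 8.47% of 4616 with a shared locus and 12.1% of 6781 alone in their locus were at least 2-fold lower.

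**Figure D3:**
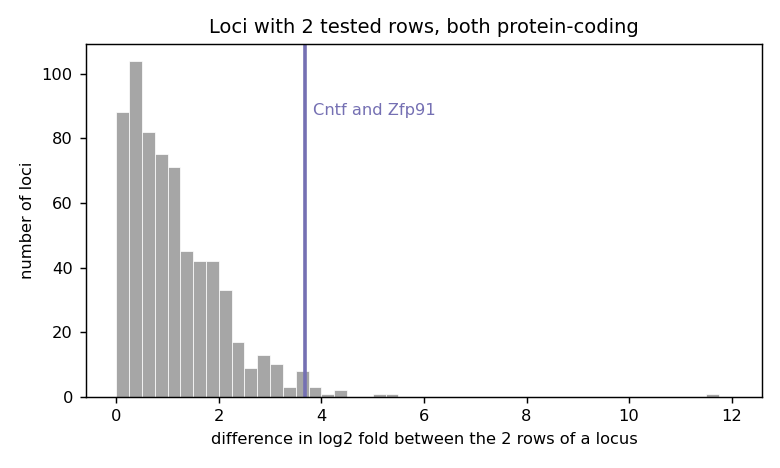
Number of loci by the difference in log2 fold (pellet over soluble) between their rows, for the 651 loci with exactly 2 tested rows that are both protein-coding, in bins of equal width. The purple line marks Cntf and Zfp91 at 3.68, in the thin right tail of a distribution with a median of 0.93.

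The other row in the locus of Alox5ap had almost no signal. The antisense RNA WI1-1993I8.1 (ENSMUSG00000107317.1) had 0.00235 FPKM in the pellet and 0.00293 FPKM in the soluble extract, under the level filter in both. Its log2 fold was 1.44, which turns to -0.32 on the FPKM scale, and at this level it is not read as a difference. Alox5ap made up 96.8% of the FPKM of the locus in the pellet and 99.9% in the soluble extract, and with both rows added the log2 fold was -4.52. The libraries were strand-specific, per the labels' protocols, but the sources used here do not say whether the counting used strand.

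Neighbouring genes on chromosome 5 did not share the low ratio of Alox5ap. Of 11 rows in other loci within 100 kb, 3 passed the level filter. Uspl1, encoding a SUMO protease of Cajal bodies, lies 49623 bp away and had 7.35 FPKM in the pellet and 9.45 FPKM in the soluble extract, a log2 fold of 1.39 (-0.36 on the FPKM scale). Medag, a gene of fat cell differentiation 79590 bp away, had 0.616 and 2.88 FPKM in the same order. Its log2 fold was -0.47 (-2.22 on the FPKM scale). BC028471, a processed transcript that shares the locus of Medag, had a log2 fold of 0.42 (-1.33 on the FPKM scale). Around Cntf and Zfp91, 0 of 5 rows in other loci passed the filter. The nearest, Lpxn, which encodes the focal adhesion protein leupaxin, lies 2479 bp from the locus and had 0.155 FPKM in the pellet and 0.121 FPKM in the soluble extract.

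The rows most like each gene, by distance in log2 pellet and log2 soluble FPKM over the 2 pooled values, were largely pseudogenes and small RNAs. Nearest to Alox5ap were the pseudogene Gm15531 (0.0510 FPKM in the pellet and 4.18 FPKM in the soluble extract, distance 0.65), the microRNA locus Mir678 (0.104 and 4.28 FPKM, distance 0.68) and Cntf itself (distance 0.93). The pseudogenes Gm6404 (0.97) and Gm6733 (1.38) followed. Nearest to Cntf were Gm6404 (0.126 FPKM in the pellet and 4.03 FPKM in the soluble extract, distance 0.18), Mir678 (0.26) and the pseudogene Gm15148 (0.52). Trex1, a DNA exonuclease of the cytosol, had 0.142 FPKM in the pellet and 2.60 FPKM in the soluble extract, with a distance of 0.60 from Cntf, and Gm10320 had 0.67. Alox5ap was closer to Cntf than to any other protein-coding row, while 3 pseudogenes or small RNAs were closer to Cntf than Trex1.

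Other genes of the leukotriene pathway were within 2-fold on the spike-in scale or under the level filter. Of 14 list genes in the table, 3 passed the level filter. Of these, 1 was at least 2-fold lower in the pellet, Alox5ap itself, and 0 were higher. Among tested protein-coding rows 10.6% were lower and 24% higher, and among all tested rows 10.5% and 31.9%. Lta4h, the hydrolase that makes leukotriene B4, had 12.8 FPKM in the pellet and 52.8 FPKM in the soluble extract, a log2 fold of -0.29 (-2.04 on the FPKM scale). Cysltr1, a receptor of cysteinyl leukotrienes, had 1.86 and 5.16 FPKM in that order, a log2 fold of 0.28, which turns to -1.47 on the FPKM scale. On that scale all 3 were at least 2-fold lower, as were 68.2% of tested protein-coding rows and 61.2% of all tested rows. Alox5, the lipoxygenase that FLAP serves, had 0.0819 FPKM in the pellet and 0.211 FPKM in the soluble extract. Pla2g4a, the phospholipase that releases arachidonic acid, had 0.00126 and 0.00176 FPKM in the same order. Thus the soluble level of Alox5ap was above that of Alox5 on the per-length FPKM scale. Both pellet levels were under 0.1 FPKM.

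In the family of small membrane proteins to which FLAP belongs, called MAPEG, Mgst3 also lay to the soluble side. Of 6 members 3 passed the filter, with 2 at least 2-fold lower in the pellet, Alox5ap, chosen for its low ratio, and Mgst3. Of the members 0 were higher. Among tested protein-coding rows 10.6% were lower and 24% higher, and among all tested rows 10.5% and 31.9%. Mgst3, a microsomal glutathione transferase, had 0.562 FPKM in the pellet and 6.90 FPKM in the soluble extract, a log2 fold of -1.86. Its soluble level was near that of Alox5ap, and its pellet level was higher. Mgst2 had 0.494 and 1.34 FPKM in that order, a log2 fold of 0.32 (-1.44 on the FPKM scale). Ltc4s, the synthase of leukotriene C4, had 0.0708 FPKM in the pellet and 0.0115 FPKM in the soluble extract, and Ptges, a prostaglandin E synthase, had 0.147 and 0.576 FPKM. Neither passed the filter.

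Signalling genes of the Cntf receptor were mostly within 2-fold of balance on the spike-in scale. Of 22 genes in a list of interleukin-6 family cytokines, receptors and signalling proteins, 15 passed the filter. Of these, 1 was at least 2-fold lower in the pellet, Cntf itself, 3 were higher and 11 lay between. Among tested protein-coding rows 10.6% were lower and 24% higher, and among all tested rows 10.5% and 31.9%. The median log2 fold of the 15 list genes was 0.25 with Cntf, which was chosen for its low ratio, included. Over the 14 other tested genes it was 0.41, beside 0.26 over tested protein-coding rows and 0.41 over all tested rows. On the FPKM scale the counts were 11 lower and 0 higher. The shares there were 68.2% lower and 2.25% higher of tested protein-coding rows, and 61.2% and 9.66% of all tested rows. The list median on that scale, again with Cntf included, was -1.50, beside -1.49 over tested protein-coding rows and -1.34 over all tested rows.

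Of the tested ligands described here, Cntf had the lowest ratio, for which it was chosen, and the others were only Lif and Ctf1. Lif had 1.02 FPKM in the pellet and 1.44 FPKM in the soluble extract, a log2 fold of 1.25, which turns to -0.50 on the FPKM scale. Ctf1, encoding the cytokine cardiotrophin, had 0.510 and 2.13 FPKM in that order and a log2 fold of -0.31. Osm, Il6, Il11, Il27, Clcf1 and Ctf2 were below the filter.

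The receptor subunit specific to Cntf was scarcely detected. Cntfr had 0.0273 FPKM in the pellet and 0.0370 FPKM in the soluble extract. The shared subunits were abundant. Il6st, which encodes gp130, had 58.9 FPKM in the pellet and 226.9 FPKM in the soluble extract, a log2 fold of -0.19, and Lifr had 21.1 and 48.2 FPKM in that order, a log2 fold of 0.56. Osmr, the oncostatin M receptor subunit, lay past 2-fold towards the pellet with a log2 fold of 1.29 (-0.46 on the FPKM scale). The remaining receptors Il11ra1 (-0.31) and Il6ra (0.19) lay within 2-fold.

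The downstream genes described here were within 2-fold apart from Socs3. Jak1 had 8.88 FPKM in the pellet and 34.8 FPKM in the soluble extract, a log2 fold of -0.22, and Stat3, the transcription factor the pathway activates, had 37.9 and 107.1 FPKM in that order, a log2 fold of 0.25. Jak2 (0.72), Tyk2 (0.98), the phosphatase gene Ptpn11 (-0.03) and Pias3 (0.66), an inhibitor of Stat3, also lay within 2-fold. Socs3, a feedback inhibitor, had 3.52 FPKM in the pellet and 5.23 FPKM in the soluble extract, a log2 fold of 1.18 (-0.57 on the FPKM scale).

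**Figure D4:**
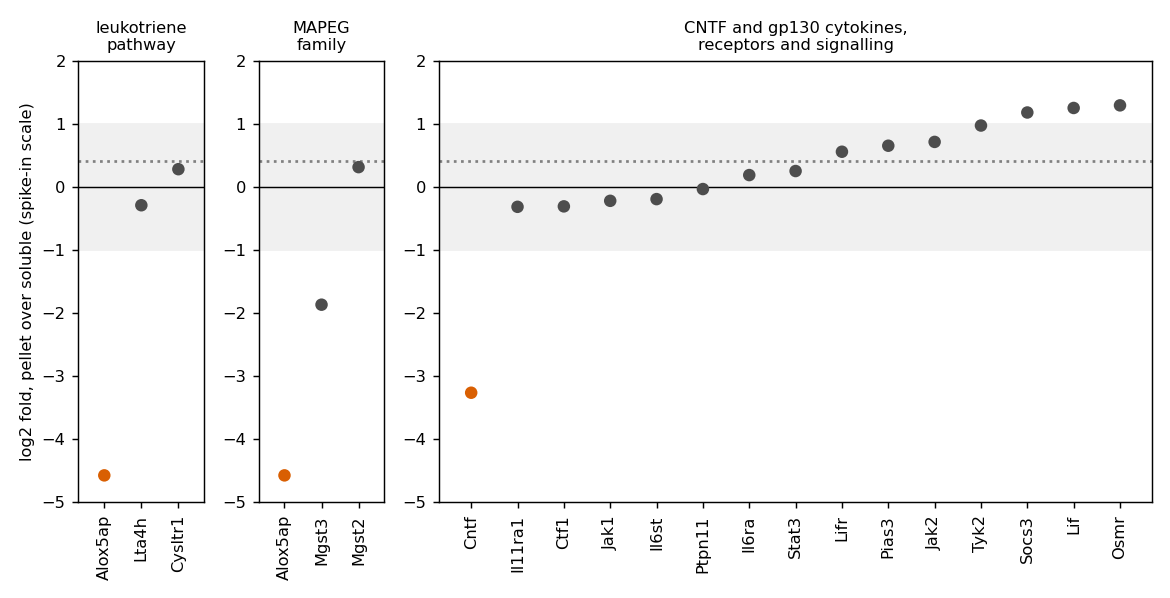
Log2 fold, pellet over soluble on the spike-in scale, of the tested genes reported here from the leukotriene pathway, the MAPEG family and the cytokine family of Cntf, ordered by value, with Alox5ap and Cntf in orange. The grey band covers values within 2-fold and the dotted line is the median of all tested rows (0.41). The median of tested protein-coding rows, not drawn, was 0.26. Alox5ap (-4.57) and Cntf (-3.26), both chosen for a low ratio, are the lowest point in each panel that holds them.

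Leukocyte markers, from the cells in which Alox5ap is best known, were low, while markers of Schwann cells and glia, where Cntf is known, were mixed. Of 9 markers of macrophages and other leukocytes found in the table, 1 passed the filter, Cd68, and the 9 added up to 0.927 FPKM in the pellet and 1.10 FPKM in the soluble extract. Their highest values, those of Cd68, were 0.569 FPKM in the pellet and 0.711 FPKM in the soluble extract, below the 5.67 FPKM of Alox5ap there. Of 5 markers of Schwann cells and glia, 3 passed, and the 5 added up to 9.32 FPKM in the pellet and 24.1 FPKM in the soluble extract. Most of that came from Mbp, with 7.01 and 20.5 FPKM in that order, above the 3.71 FPKM of Cntf in the soluble extract. Of 4 fibroblast markers 2 passed, with sums of 1.45 FPKM in the pellet and 6.46 FPKM in the soluble extract, and of 4 endothelial markers 2 passed, with sums of 2.38 and 6.95 FPKM. No row of the whole table was listed at 0, so a value above 0 does not show that a marker was detected. All libraries came from the single HL-1 line, so the marker levels describe that line and not a tissue of several cell types. In pooled cells a message in few cells cannot be told apart from a low level in all.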

How the data were processed

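Nuclear RNA of HL-1 cells was depleted of ribosomal RNA and made into strand-specific libraries, as the labels' protocols state. The submitters' processing notes name Cufflinks and Cuffdiff, HISAT2, bedtools and SAMtools, without versions, and mm10 as the build. The authors deposited 1 table with an FPKM value per fraction, a rescaled pellet signal, a total signal that adds it to the soluble FPKM, their ratio (chromatin enrichment), and the log10 of total and ratio, per the file headers. In the tested rows the rescaled signal equals pellet FPKM times the slope of a least-squares line, forced through 0, of soluble against pellet values of the 82 spike-ins.

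Of 30687 lines, 1945 repeated an identifier and were dropped, keeping a line with a true RNA type where possible. Folds were recomputed from FPKM without a pseudocount, for rows with a mean of at least 0.5 FPKM. Starts in the table count from 0, and 1 was added. The deposited values are pooled over replicates, so no test across replicates could be run, and depth is unknown. Named genes are both members, all rows of their loci, the 5 nearest rows to each, the 10 lowest rows, rows within 100 kb, and tested members of the lists; rows given as the lowest or widest of a set were named after their values were seen. The members and lists were chosen with earlier results of these data known, and some list genes are not reported here. The computation was tested on simulated data. Python 3.11.15, pandas 2.3.3, numpy 2.4.6 and matplotlib 3.10.9 were used. Alternatives were another spike-in factor, the FPKM scale, pseudocounts of 0.1 and 1, other level filters, and locus rows added together.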

Additional observations from a re-analysis of the deposited data

How the results depend on the processing

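No paired analysis was possible because each fraction has 1 pooled value, and for the same reason no library could be left out. Weighting locus rows by exon length was not run, since the reference tables hold no exons. Alox5ap and Cntf were at least 2-fold lower in the pellet in every alternative run for their own rows. On the FPKM scale, by construction 1.75 lower, log2 folds were -6.32 (Alox5ap), -5.01 (Cntf), -1.33 (Zfp91) and -0.32 (WI1-1993I8.1). A pseudocount of 1, large beside the pellet values, gave -2.43, -1.76, 0.42 and 0.0072 for the same rows, and 2.18 in place of 3.68 for the difference between Zfp91 and Cntf. A pseudocount of 0.1 gave -4.09 for Alox5ap, -2.97 for Cntf and 0.068 for WI1-1993I8.1. Adding Zfp91 to Cntf turned the value to 0.31, since Zfp91 holds most of the summed FPKM. The median spike-in ratio, 3.50 in place of 3.37, moved each log2 fold by less than the spike-in SD.

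The count of rows at least 2-fold lower was 1467, and became 2546 with no filter on low values, 8514 on the FPKM scale and 967 in loci of 1 row, where fewer rows were tested. Without the filter, Alox5ap stood at number 24 from the lowest and Cntf at number 87. With a mean of at least 1 FPKM they stood at 5 and 14. On the FPKM scale the lower counts became 3 for the leukotriene list, which was 1, and 11 for the cytokine list, which was 1, and its higher count became 0 from 3. Chosen after seeing the data were the ranks under both other filters, the alternatives for the difference within the locus, and the median ratio and pseudocount of 0.1 for Zfp91 and WI1-1993I8.1.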

Other observations

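The ribosomal RNA rows differed by name, and those that surround Alox5ap and Cntf at the low end were n-R5s copies. Of 29 tested rows of this type, 14 (48.3%) were at least 2-fold lower in the pellet and 10 higher, against 10.5% and 31.9% of all tested rows. The median log2 fold was 0.27, and 7 rows were at least 8-fold lower. The 14 lower rows were n-R5s copies apart from Gm25885 (-1.05), and the 10 higher rows had Gm names apart from n-R5s67 (1.39). The copies n-R5s210, n-R5s71, n-R5s1 and n-R5s28 carried the same pellet value of 0.404 FPKM, beside soluble values of 23.7, 20.4, 16.6 and 3.49 FPKM. Gm25488, among the rows of this type with Gm names, went the other way. It had 22.7 FPKM in the pellet and 2.59 FPKM in the soluble extract, a log2 fold of 4.88. In all, 155 tested rows had a pellet FPKM equal, to 12 decimals, to that of another tested row. Of Alox5ap and Cntf this held for 0.

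Processed pseudogenes, the type of 2 of the 15 lowest rows, were lower in the pellet in 156 of 420 tested rows (37.1%) and higher in 144, against 10.5% lower and 31.9% higher of all tested rows, with a median log2 fold of -0.42. These classes were looked at after their values were seen, and multiply placed reads were not examined.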
